A study of Rattus norvegicus with 36 samples.

Results

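miR-10a-5p and miR-10b-5p are microRNAs encoded within the Hox clusters, and they were described here in lung and blood of rats given X-rays to the thorax. The members were taken by name from the table of read counts. A row was held for 1 of the 2 members, rno-miR-10a-5p, among 947 rows, of which 459 bear the name of a known rat microRNA (miRNA). No count for rno-miR-10b-5p was analysed here, so the ratio of the paralogs cannot be given. None of the 9 names searched for the other Hox cluster miRNAs, the arms of miR-196a, miR-196b, miR-196c and miR-615, had a row.

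Hox clusters hold the transcription factor genes that set the identity of cells along the body axis, and a few miRNA genes lie between those genes. miR-10a lies beside Hoxb4 and miR-10b beside Hoxd4. A miRNA binds messenger RNAs mainly through bases 2 to 8 from its 5′ end, its seed, and represses them; Hox messages are among the known targets of the miR-10 family, and in endothelial cells miR-10a is known to restrain inflammatory signaling.

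Small RNA was sequenced from lung and from whole blood of female WAG/RijCmcr rats. The rats were 9 to 10 weeks old when a single dose of 15 Gy of X-rays was given to the whole thorax, a field that held the lung, the heart and a little of the liver. Each tissue had 6 groups of 3 libraries, which were 0 Gy at week 1, 0 Gy at week 4, and 15 Gy at weeks 1, 2, 3 and 4. The 0 Gy rats were age-matched and not irradiated. By the study's methods each library pooled RNA of 3 rats, so the spread between libraries is a spread between pools, and the labels do not say which pools of the tissues came from the same rats.

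Library depth was 1156407 to 2340177 counts for blood, whereas lung libraries held 8132 to 3807051. Replicate 3 of 0 Gy week 1 (11621 counts) and replicate 3 of 15 Gy week 3 (8132 counts) in lung lay under 0.1 of the median lung depth, and the results that rest on them are also given without them. Replicate 3 of 0 Gy week 4 in lung stood apart in its scaling factor, 0.463 against 0.881 to 1.60 in the other 17 lung libraries. As shares of all counts, markers of lung tissue and red cells lay on the side of their labels, while those of leukocytes did not. In blood the red cell miR-486-5p took a median of 90.5% of these counts, which lowers every other share there. Marker shares without miR-486-5p were not computed. The 4 red cell miRNAs, among them miR-486-5p and miR-451-5p, summed to 84.9% to 96.0% of the counts in blood and to 0.705% to 48.2% in lung (median 2.28%), and the 48.2% was in the lung library of 8132 counts. The 7 miRNAs of lung epithelium summed to 0.369% to 0.969% in lung and to at most 0.00107% in blood, and those of endothelium (miR-126a-3p and miR-126a-5p) to 0.372% to 2.96% in lung and at most 0.00873% in blood. The medians in lung and blood were 8.60% and 0.0124% for smooth muscle (miR-143-3p and miR-145-5p), 0.142% (0.0716% to 0.250%) and 0.0207% (0.00623% to 0.113%) for the 4 leukocyte miRNAs, which thus took more of the counts in lung than in blood, and 0.00493% and 0.000424% for the 2 of 6 heart and skeletal muscle miRNAs with a row. miR-122-5p of liver was at most 0.00243% in blood and at a median of 0 in lung.

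The sequences of the 2 paralogs are shown because they differ so little that reads of 1 could be counted as the other. They were taken from RefSeq on build GRCr8, with the seed in capitals.
miR-10a-5p (chr10:81779730-81779752, + strand): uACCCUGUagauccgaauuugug
miR-10b-5p (chr3:80035886-80035907, + strand): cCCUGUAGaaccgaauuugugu
With positions counted from 1 at the 5′ end of miR-10a-5p, miR-10b-5p began 2 bases further on and differed in 1 of the 21 aligned bases, U12A. Because of the shifted start the seeds of these entries were ACCCUGU and CCUGUAG. How reads with a mismatch, or reads fitting both paralogs, were assigned is not given in the sources used here, so the counts of miR-10a-5p may hold reads of miR-10b-5p.

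The precursor shows both arms of the miR-10a gene in capitals, first the 5p and then the 3p arm.
Mir10a hairpin (chr10:81779709-81779818, + strand, GRCr8): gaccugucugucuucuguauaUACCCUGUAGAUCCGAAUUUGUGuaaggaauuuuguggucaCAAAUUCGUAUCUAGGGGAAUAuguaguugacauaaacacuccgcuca
In this annotation 1271 bases separated the end of Mir10a from the start of Hoxb4 (chr10:81781090-81783672), and Mir10b (chr3:80035859-80035967) lay inside the span of Hoxd4 (chr3:80021886-80041462).

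The first question was how much miR-10a-5p each tissue held. It was among the most abundant miRNAs of the lung and a minor one of the blood. In lung it took 3.34% to 8.65% of all counts (median 5.52%, n = 18 libraries), which was rank 1 to 3 among known rat miRNAs. In blood it took 0.00465% to 0.0104% (median 0.00565%, n = 18 libraries), rank 43 to 65. The counts behind these shares were 272 to 199733 in lung and 84 to 212 in blood. The lowest blood share, 0.00465%, had a Wilson 95% interval of 0.00383% to 0.00565%, and the highest, 0.0104%, one of 0.00906% to 0.0119%. These intervals cover counting error only, since amplified reads are not independent molecules. The total of all counts includes rows of predicted new loci, some of which overlap in position. Whether a read was counted in more than 1 row was not analysed here. As a share of known rat miRNAs only, miR-10a-5p took 4.30% to 18.8% in lung (median 12.6%). In blood that share was 0.00475% to 0.0106% (median 0.00577%).

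As shares of all counts, no lung library overlapped any blood library. How many of all miRNAs were separated in this way was not counted, and 83.5% were called in either direction in the test below. The lowest share in lung was 323 times the highest share in blood, and the ratio of the medians was 976. The difference of mean log2 shares was 9.78, with a permutation p of 2e-05, the smallest that 100000 resamples can give. Most of the blood counts were miR-486-5p of red cells (83.3% to 95.9% of each library). The paper proposes that reads of this miRNA may be overrepresented, since quantitative PCR placed it in the range of another red cell miRNA. Shares of the blood counts may therefore not be proportions of molecules. With miR-486-5p taken out of the totals, the ratio of the medians was 103 and the lowest lung share was still 33.5 times the highest blood share. A share falls when another miRNA takes more of the counts, and in bulk samples fewer cells that hold a miRNA and less of it per cell cannot be told apart.

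**Figure D1:**
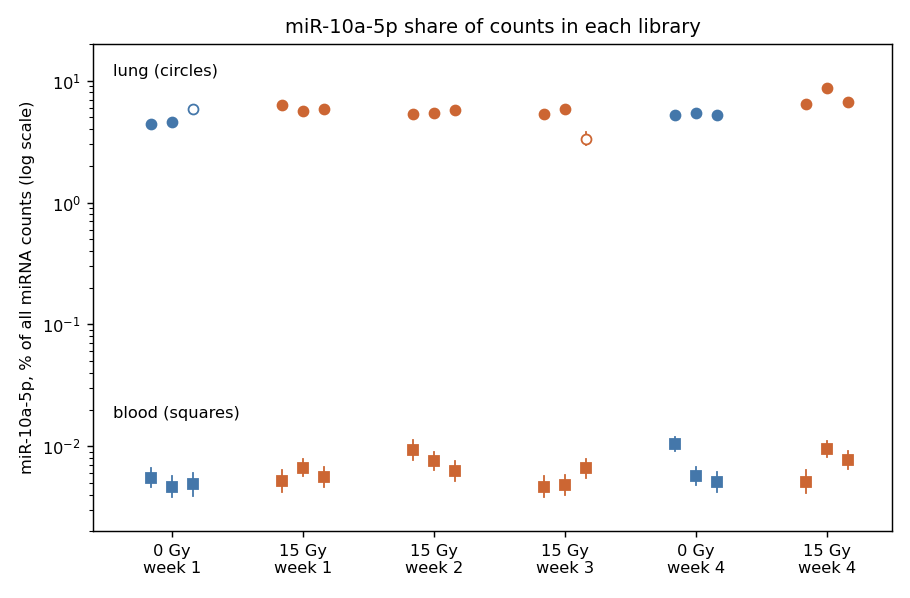
Share of miR-10a-5p in all miRNA counts of each library (percent, log axis) by dose and week, circles for lung and squares for blood, blue for 0 Gy and orange for 15 Gy; lines are Wilson 95% intervals, in most lung libraries smaller than the symbol, and open symbols are the 2 lung libraries of low depth. The lung libraries lie between 3.34% and 8.65% and the blood libraries between 0.00465% and 0.0104%.

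In edgeR's quasi-likelihood test over 576 miRNAs of both tissues, with TMM scaling (a factor per library that centers most miRNAs), miR-10a-5p was 150-fold higher in lung (log2 fold change 7.23, SE 0.22, 95% interval 110- to 205-fold, adjusted p = 2.31e-20). Of all miRNAs tested 51.9% were called higher in lung, 31.6% lower and 83.5% in either direction, and the median log2 fold change over all of them was 1.87. miR-10a-5p had the smallest p of the 576, while it was rank 83 by the size of the change. The same difference was called within each of the 6 groups of dose and week, with log2 fold changes from 6.66 (SE 0.53) at 0 Gy week 1 to 7.53 (SE 0.55) at 15 Gy week 4; 60.1% of all miRNAs were called within 0 Gy week 1 and 65.5% within 15 Gy week 4. The size of the fold rests on the scaling. It was 54.6- to 279-fold with each of the 36 libraries as reference of the TMM factors, and 33 of the 36 fits with a library left out, which take the lung library of 8132 counts as reference, gave 51.2- to 59.5-fold.

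The most abundant miRNAs of the lung differed widely in how much of them was found in blood. Among the 10 known miRNAs that took most of the lung counts on average, miR-10a-5p was rank 2 (mean share 5.63%) after miR-143-3p of smooth muscle (9.12%). It was also rank 2 by the ratio of the mean lung share to the mean blood share, 881, after miR-125a-5p (1077) and before miR-143-3p (697) and miR-99b-5p (532). The red cell miR-486-5p was rank 3 in lung (mean share 5.0%, 48.1% in the library of 8132 counts) and had the lowest ratio, 0.0558, followed by miR-3596a (3.25), miR-26a-5p (3.96) and let-7f-5p (4.59). In blood the counts of miR-10a-5p (84 to 212) and miR-143-3p (186 to 340) thus stood beside 1851 to 15439 counts of miR-26a-5p, whose lung share was 1.91%.

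**Figure D2:**
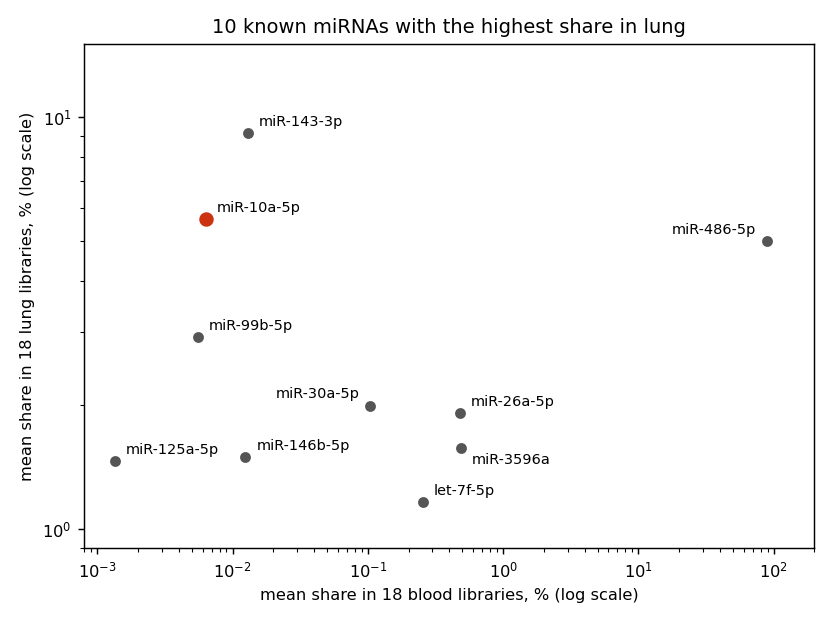
Mean share in 18 lung libraries against mean share in 18 blood libraries (percent of all counts, both axes log) for the 10 known miRNAs that took most of the lung counts, with miR-10a-5p in red. miR-10a-5p stands at 5.63% in lung and 0.00639% in blood, and miR-486-5p at 5.0% and 89.6%.

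The second question was whether the level in lung moved with dose and week. As a share of all counts the 0 Gy libraries of week 1 held 4.45%, 4.55% and 5.83% miR-10a-5p, the last in the library of 11621 counts. Those of 0 Gy week 4 held 5.25%, 5.39% and 5.24%. The libraries of week 4 lay closer together than those of week 1, and the ranges of the 2 control groups overlapped. After 15 Gy the shares were 6.30%, 5.59% and 5.88% at week 1. They were 5.37%, 5.45% and 5.76% at week 2, and 5.37%, 5.88% and 3.34% at week 3. The 3.34% was the library of 8132 counts, in which miR-486-5p alone took 48.1% of the counts and miR-10a-5p 6.44% of the rest. At week 4 they were 6.43%, 8.65% and 6.69%, the 3 highest shares in lung. All 3 lay above the 3 libraries of 0 Gy week 4, which 3.26% of the miRNAs with a count in lung also did.

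Ordered by mean share, the lung groups were 15 Gy week 3 (4.87% ± 1.34, SD, n = 3), 0 Gy week 1 (4.94% ± 0.767), 0 Gy week 4 (5.29% ± 0.0853), 15 Gy week 2 (5.53% ± 0.204), 15 Gy week 1 (5.92% ± 0.361) and 15 Gy week 4 (7.26% ± 1.21). Each pair of neighbours in this order overlapped, except that every library of 15 Gy week 4 was above every library of 15 Gy week 1, as for 4.3% of the miRNAs with a count in lung.

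Over all weeks the mean share was 5.89% ± 1.21 (SD, n = 12) after 15 Gy and 5.12% ± 0.524 (n = 6) at 0 Gy, a difference of 0.18 on the log2 scale that did not pass the exact permutation test (two-sided p = 0.227). That outcome rested on 1 library. Without the 15 Gy week 3 library of 8132 counts the difference was 0.25 (exact permutation p = 0.00598). Without both libraries of low depth it was 0.29, or 1.22-fold (exact permutation p = 0.00137 with the smaller tail doubled, 0.00504 by the absolute difference), with 6.12% ± 0.945 (n = 11) after 15 Gy and 4.97% ± 0.439 (n = 5) at 0 Gy. In those 16 libraries 9 of the 11 irradiated libraries were above the highest 0 Gy library, and 3.03% of 859 miRNAs had an exact permutation p under 0.05 in the same direction. Adjusted over those miRNAs by Benjamini-Hochberg, the p was 0.465. With miR-486-5p out of the totals the difference over all 18 libraries was 0.26 (exact permutation p = 0.00883), and with known rat miRNAs only in the totals, which keep miR-486-5p, it was 0.17 (exact permutation p = 0.53). Without the 15 Gy week 4 group it was 0.08 (exact permutation p = 0.582).

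After TMM scaling the picture was less even. At 0 Gy week 1 the 3 libraries held 36885, 37559 and 36384 CPM (counts relative to the scaled library total). At 0 Gy week 4 they held 49251, 49449 and 113189 CPM, and the last was the library with the scaling factor of 0.463, whose share of 5.24% was that of its group. Every library of 0 Gy week 4 was therefore above every library of 0 Gy week 1, as for 9.65% of the miRNAs with a count in lung. After 15 Gy the values were 66047, 51095 and 57157 CPM at week 1, and 56276, 49817 and 64971 CPM at week 2. Both groups lay wholly above 0 Gy week 1, as did 10.8% and 10.6% of the miRNAs. They were 51937, 55625 and 37976 CPM at week 3 and 71973, 90908 and 68433 CPM at week 4, and both groups overlapped 0 Gy week 4.

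**Figure D3:**
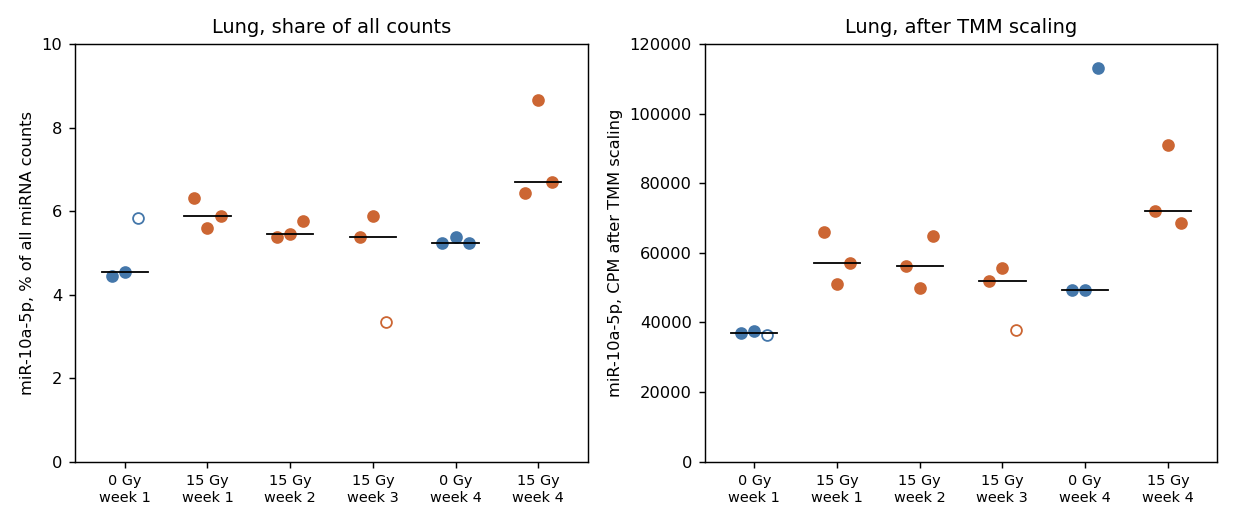
miR-10a-5p in each lung library as a percent of all counts (left) and as CPM after TMM scaling (right) by dose and week, blue for 0 Gy, orange for 15 Gy, lines for group medians and open symbols for the 2 libraries of low depth. Replicate 3 of 0 Gy week 4 lies with its group at 5.24% on the left and apart from it at 113189 CPM on the right.

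No change after 15 Gy in lung passed the edgeR test at any week. The log2 fold change was 0.65 (SE 0.34, 95% interval -0.07 to 1.37, adjusted p = 0.497) at week 1 and 0.63 (SE 0.34, -0.09 to 1.35, adjusted p = 1) at week 2, both against 0 Gy week 1. Against 0 Gy week 4 it was -0.54 (SE 0.34, -1.26 to 0.18, adjusted p = 0.664) at week 3 and 0.13 (SE 0.34, -0.59 to 0.84, adjusted p = 0.991) at week 4. In each of these comparisons 0% of 499 miRNAs were called, with 52, 26, 39 and 48 miRNAs at an unadjusted p under 0.05 and 6, 6, 4 and 8 called by DESeq2 at weeks 1, 2, 3 and 4, miR-10a-5p not among them. The intervals leave room for a change of about 2.59-fold up at week 1 and for one to 0.417 of the control at week 3. The 2 control groups differed by 0.93 on the log2 scale (SE 0.34, adjusted p = 0.568), a larger value than any of the 4 changes after 15 Gy. Without replicate 3 of 0 Gy week 4 that difference was 0.31, the change at week 3 was -0.0025 and the change at week 4 was 0.73, so that this 1 library decided all 3 values. Measured against the other control group, weeks 1 and 2 turned to -0.28 and -0.31 and week 3 to 0.39, and week 4 rose from 0.13 to 1.06 (SE 0.34, adjusted p = 0.510).

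In blood the counts were low, at 84 to 212 per library. The shares at 0 Gy were 0.00549%, 0.00465% and 0.00487% at week 1 and 0.0104%, 0.00573% and 0.00505% at week 4. After 15 Gy they were 0.00520%, 0.00668% and 0.00558% at week 1. At week 2 they were 0.00925%, 0.00757% and 0.00626%, each above all 3 libraries of 0 Gy week 1. That was so for 31.2% of the miRNAs with a count in blood, and miR-486-5p took less of the counts in these libraries (83.6% to 85.5%) than at 0 Gy week 1 (89.0% to 95.9%), whose part in the difference was not tested. The separation of week 2 from 0 Gy week 1 rests on the labels used. The supplement holds replicate 1 of 0 Gy week 1 and replicate 2 of 15 Gy week 1 under each other's number. With these 2 libraries exchanged, 0 Gy week 1 would hold the share of 0.00668%, above the 0.00626% of week 2. At week 3 the shares were 0.00466%, 0.00481% and 0.00660%, and at week 4 they were 0.00512%, 0.00952% and 0.00769%, both overlapping 0 Gy week 4.

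TMM scaling turned the direction at week 2 in blood. The levels were 53.8, 62.5 and 96.2 CPM at 0 Gy week 1 and 49.6, 51.5 and 35.8 CPM at 15 Gy week 2, so that every irradiated library was now below every control, as for 7.44% of the miRNAs. On this scale the groups ordered by mean were 15 Gy week 2 (45.6 ± 8.54 CPM, SD, n = 3), 15 Gy week 3 (53.5 ± 16.9), 0 Gy week 1 (70.8 ± 22.4), 15 Gy week 4 (74.1 ± 57.1), 0 Gy week 4 (77.8 ± 37.4) and 15 Gy week 1 (84.0 ± 32.4), and each pair of neighbours overlapped. The log2 fold changes were 0.25 (SE 0.52, adjusted p = 0.981) at week 1, -0.63 (SE 0.52, adjusted p = 0.656) at week 2, -0.54 (SE 0.52, adjusted p = 0.619) at week 3 and -0.08 (SE 0.52, adjusted p = 0.982) at week 4. edgeR called 0.346%, 0.346%, 0% and 0% of 289 miRNAs at these weeks, and 18, 34, 43 and 22 had an unadjusted p under 0.05. DESeq2 called 5, 3, 5 and 4. With library totals in place of TMM the value at week 2 was 0.62 (adjusted p = 0.275). With the 2 blood libraries exchanged, the value at week 1 turned to -0.43 (edgeR adjusted p = 0.994).

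Lung and blood were also compared in their change after 15 Gy. The change in lung minus that in blood was 0.47 (SE 0.58) at week 1, 0.84 (SE 0.58) at week 2, -0.28 (SE 0.58) at week 3 and 0.11 (SE 0.58) at week 4 on the log2 scale. None passed (adjusted p 0.868 to 1), and 0.174%, 0.174%, 0% and 0% of 576 miRNAs did. The 95% interval reached from -0.36 to 2.03 at week 2 and from -1.48 to 0.91 at week 3. Weeks 1 and 2 share the 0 Gy week 1 libraries and weeks 3 and 4 the 0 Gy week 4 libraries. Over all weeks together the change was 0.22 (SE 0.21, adjusted p = 0.816) in lung, where 0% of miRNAs were called, and -0.25 (SE 0.31, adjusted p = 0.677) in blood, where 1.04% were.

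**Figure D4:**
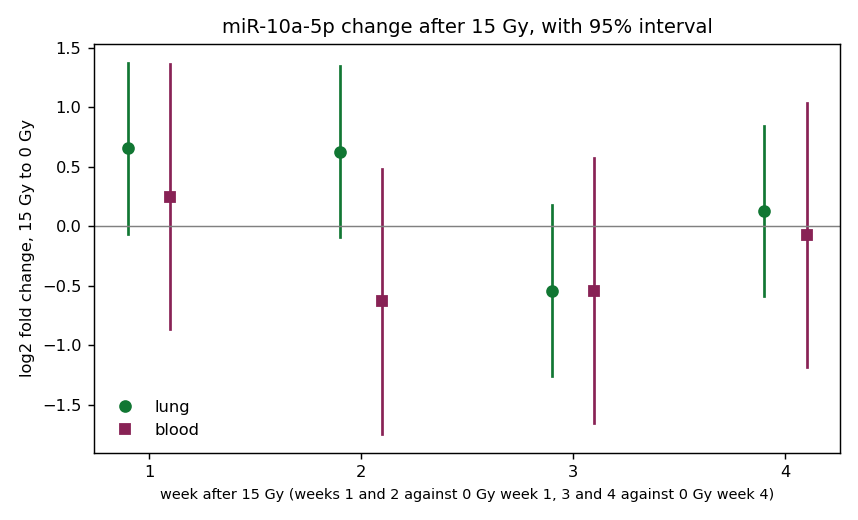
Log2 fold change of miR-10a-5p after 15 Gy against 0 Gy by week (edgeR with TMM scaling), circles for lung and squares for blood; lines are 95% intervals. All 8 intervals include 0.

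The 5p arm was counted almost alone. In the 18 lung libraries miR-10a-5p had 1271007 counts and miR-10a-3p had 88, which is 0.00692% of the 5p arm or 14443 counts of 5p for each count of 3p. The 3p arm had a count in 13 lung libraries and at most 27 in 1 library. The ratio of the arms leaves out 2 rows described under other observations. They are a homolog row named for miR-10-3p of insects (409 counts in lung) and a new locus on chromosome 10 (110 counts). Whether these rows hold reads of the 3p arm was not analysed here. In blood, where miR-10a-5p had 2161 counts, miR-10a-3p had 0, which allows up to 0.139% of the 5p arm; at the ratio of the lung 0.150 counts would be found, so a difference in the ratio of the arms was not detectable at this depth.

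The relatives of the family are miR-99a-5p, miR-99b-5p, miR-100-5p, miR-125a-5p and miR-125b-5p, which are encoded in clusters of their own outside the Hox genes. miR-100-5p and miR-99b-5p are shown, with the seed in capitals, as the relatives with the most bases matching miR-10a-5p, 19 and 15. miR-125b-5p was close behind, with 14 of 21 aligned bases. These relatives and miR-125a-5p were matched in RefSeq on GRCr8, while miR-99a-5p was not and could not be compared.
miR-100-5p (chr8:50798307-50798328, + strand): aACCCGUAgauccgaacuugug
miR-99b-5p (chr1:67350070-67350091, + strand): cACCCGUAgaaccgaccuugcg
miR-100-5p differed from miR-10a-5p in 3 of 22 aligned bases (C3A, U6C and U18C), and miR-99b-5p in 7 of 22. miR-100-5p and miR-99b-5p had the same seed, which was not that of miR-10a-5p.

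In lung miR-10a-5p outnumbered its relatives. Over the 16 lung libraries of ordinary depth there were 1.96 counts of miR-10a-5p for each count of miR-99b-5p (median, range 0.830 to 7.65) and 3.98 for each of miR-125a-5p (2.00 to 15.5). The medians were 25.9 for miR-100-5p (13.7 to 212), 34.5 for miR-99a-5p (20.9 to 412) and 34.6 for miR-125b-5p (15.9 at the lowest). The highest ratio to each of the 5 relatives was in replicate 3 of 0 Gy week 4, the one with the low scaling factor. These ratios compare counts of different sequences, which ligate and amplify unequally, so they rank libraries and not molecules.

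In blood the ratios had medians of 1.31 to miR-99b-5p (range 0.561 to 2.36, 18 libraries) and 5.02 to miR-125a-5p (2.06 to 10.9), near those of lung, while the other 3 relatives had at most 9, 17 and 9 counts per library for miR-99a-5p, miR-100-5p and miR-125b-5p. All 5 relatives were called higher in lung than in blood, with log2 fold changes from 6.41 (SE 0.29) for miR-99b-5p to 7.53 (SE 0.37) for miR-125b-5p, beside 7.23 for miR-10a-5p and 51.9% of all miRNAs called higher. None of the 5 was called after 15 Gy in lung at any week, where 0% of all 499 miRNAs were called. At week 4 their log2 fold changes were 0.69 to 1.81 with adjusted p of 0.453 to 0.630, beside 0.13 for miR-10a-5p. In blood 2 relatives passed the filter on low counts, miR-99b-5p and miR-125a-5p, and neither was called. By week, 0% to 0.346% of all 289 miRNAs in blood were called. The log2 fold changes of the 2 relatives at week 3 were -1.75 (SE 0.70) and -1.35 (SE 0.59), with an edgeR adjusted p = 0.319 for both.

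**Figure D5:**
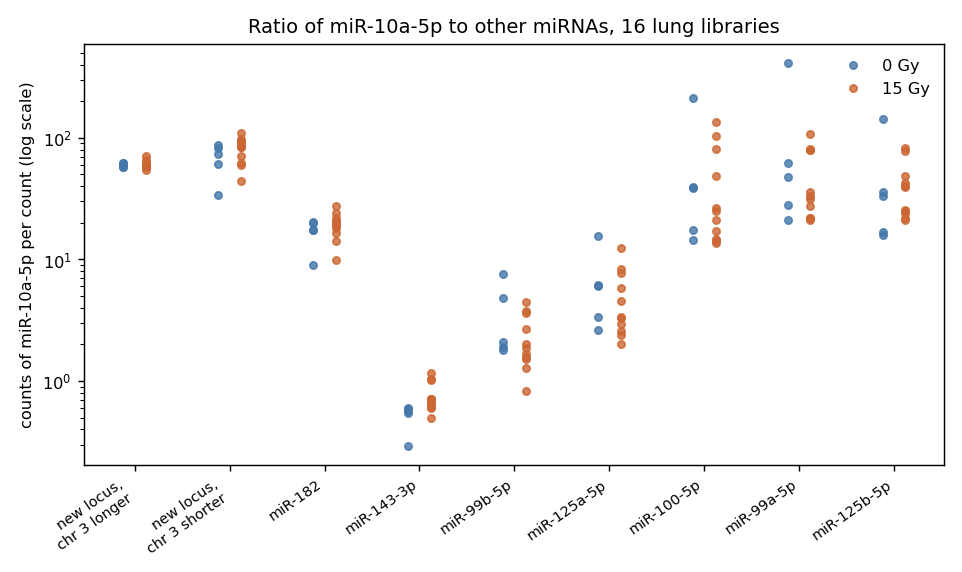
Counts of miR-10a-5p for each count of another miRNA in the 16 lung libraries of ordinary depth (log axis), 1 point per library, blue for 0 Gy and orange for 15 Gy. The ratio to the longer new locus on chromosome 3 keeps between 54.2 and 70.4, while the ratio to miR-99a-5p runs from 20.9 to 412.

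The rows whose level ran most like miR-10a-5p were found by Pearson correlation of log2 CPM over these 16 lung libraries, which share their scaling factors, so the values are a description. Closest was a row that the authors list as a new miRNA on chromosome 3 (rn4 chr3:57340837-57340983), with r = 0.98 and Spearman rho = 0.93. Its counts reached 3483 in these libraries and kept to 1.42% to 1.85% of those of miR-10a-5p (median 1.69%), which is a spread of 1.30-fold between the lowest and the highest ratio, against 3.02-fold for miR-182 and 9.22-fold for miR-99b-5p. The ratio ran from 57.3 to 62.7 at 0 Gy and from 54.2 to 70.4 after 15 Gy. The 2 lung libraries of low depth had 0 counts of it, and in blood it had 23 counts in all, with 12 of 18 libraries at 0. An overlapping row on chromosome 3 (rn4 chr3:57340843-57340973) followed with r = 0.83, had up to 2722 counts in lung and up to 65 in blood, and spread 3.25-fold in its ratio. The gene at these positions of rn4 was not analysed here, and the positions of the paralogs above are on another build.

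Among known rat miRNAs the closest were miR-182 (r = 0.83, rho = 0.88), miR-143-3p (0.71, 0.60), the red cell miR-486-5p (0.68, 0.63), miR-28-3p (0.64, 0.48) and miR-146b-5p (0.63, 0.81), where the median r over 242 known miRNAs was -0.08. Another new locus, on chromosome 18, had r = 0.71 and rho = 0.60, the same rounded values as miR-143-3p. The SD of log2 CPM was 0.66 for both rows. Whether the 2 rows hold the same reads was not analysed here. The relatives lay between -0.41 for miR-125b-5p and 0.15 for miR-99b-5p, and the endothelial miR-126a-3p at -0.69. Across these libraries the SD of log2 CPM of miR-10a-5p was 0.42, below the median of 0.57 over known miRNAs, and 38 of 243 varied less. In the 18 blood libraries it was 0.60, where the median was 0.57.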

How the data were processed

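Small RNA libraries of lung and blood were analysed, 18 per tissue, in 6 groups of 3. The authors trimmed adapters with Trim Galore 0.2.5, trimmed bases of quality under 13, mapped reads with Bowtie 1.1.1 to miRBase v19 and predicted new miRNAs from the remaining reads with miRanalyzer; the submitters' notes name build rn4. The deposited values are raw read counts per miRNA, whole numbers, and were used as they stand. The labels give 3 rats per group, the methods 9 in pools of 3. Library preparation selected RNA by size, amplification was by PCR without molecular identifiers, and the depth of 1156407 to 2340177 counts in blood and 8132 to 3807051 in lung limits the precision of low counts.

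Counts were fitted in R 4.3.3 with edgeR 4.0.16 (filterByExpr, TMM, quasi-likelihood test, group means, libraries of a tissue together, and all 36 for contrasts between tissues), leaving 499 miRNAs in lung, 289 in blood and 576 in both. P-values were adjusted by Benjamini-Hochberg over all miRNAs tested, at 0.05. The SE is the log2 fold change over the root of F, and intervals are from the t distribution with the residual and prior degrees of freedom. Weeks 1 and 2 were compared with 0 Gy week 1, weeks 3 and 4 with 0 Gy week 4. Shares of library totals were compared on log2(CPM + 1) by permutation with scipy 1.17.1, two-sided, exact within lung and with 100000 resamples between tissues. The fit was tested on simulated data. Sequences are from RefSeq on GRCr8; those of miR-10a-5p, miR-10b-5p, miR-99b-5p, miR-100-5p, miR-125a-5p and miR-125b-5p were matched by name, and that of miR-99a-5p was not. Known rat miRNAs were the 459 rows with a rat name, among them miR-486-5p, which the file classes with homologs of other species. Named were the members, other rows and arms of the family, the relatives, tissue markers, the 10 most abundant known lung miRNAs, and the 5 known miRNAs and 3 new loci most correlated with miR-10a-5p in lung. The members and lists were chosen with earlier results of these data known. Alternatives were DESeq2 1.42.0, other scalings and filters, known miRNAs only, a replicate block, libraries left out, the other control group, and the exchange of 2 blood libraries that the supplement holds under each other's number. The control blood counts printed in the paper for miR-10a-5p, miR-143-3p and miR-99b-5p match the means with these 2 libraries exchanged. They do not match the means under the labels used here. The TMM reference and each lung library left out of the share were added after the data were seen.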

Additional observations from a re-analysis of the deposited data

How the results depend on the processing

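The higher level in lung than in blood kept its direction and its call, over the 6 groups and within each, under every alternative run. The log2 fold changes over the groups were 5.77 to 8.12 with each library as TMM reference and 5.68 to 7.27 with a library left out. Under the other alternatives they ran from 6.61 (RLE size factors) to 10.10 (scaled to miR-191a-5p), with 9.79 for library totals. Shares gave 6.51 to 10.83. No change after 15 Gy, between controls or between tissues was called by edgeR or DESeq2 in any alternative, but many of these small values changed sign. Against the other 0 Gy group the log2 fold changes were -0.28, -0.31 and 0.39 at weeks 1, 2 and 3 in lung and 0.061 at week 4 in blood, week 4 in lung was 1.06 (adjusted p = 0.510), and the lung change minus the blood change was -0.30 at week 1 and 0.48 at week 3. Scaled to miR-191a-5p they were -0.0039 and -0.79 at weeks 2 and 4 and -0.49 over all weeks in lung, -0.34 and 0.15 at weeks 1 and 3 and -0.61 between controls in blood, and -0.78 for lung minus blood at week 4. With library totals they were 0.62 and 0.079 at weeks 2 and 4 and 0.13 over all weeks in blood, and -0.46 and 0.27 for lung minus blood at weeks 2 and 3. With RLE size factors they were -0.0065 between the blood controls and 0.17 for lung minus blood at week 3. DESeq2 gave 0.17, and leaving out the lung libraries of low depth 0.034, for lung minus blood at week 3, and leaving out miR-486-5p gave -0.21 at week 4. With the 2 blood libraries exchanged, week 1 in blood was -0.43 and the control difference -0.19. The cause was not tested.

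With each replicate left out, the range was -0.080 to 0.73 at week 4 in lung, -0.19 to 0.47 at week 1 and -0.97 to 0.37 at week 4 in blood, -0.29 to 0.43 between the blood controls, and -0.64 to 0.44 at week 3 and -0.36 to 0.82 at week 4 for lung minus blood. The lung share after 15 Gy against 0 Gy ranged from 0.13 to 0.25 and passed in 1 of these fits, without the library of 8132 counts. It also passed with miR-486-5p out of the totals (0.26, exact permutation p = 0.00883), without the lung libraries of low depth (0.29, p = 0.00137) and without the 15 Gy week 3 group (0.28, p = 0.00719), all of which take out that library or miR-486-5p. It did not pass with known miRNAs only in the totals (0.17, exact permutation p = 0.53), with a pseudocount of 0.1 (0.18, p = 0.227) or without any other group (0.08 to 0.24, p 0.244 to 0.582), and without the libraries of low depth the p adjusted over 859 miRNAs was 0.465.

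Same-numbered pairs had mean r 0.086 in lung and 0.061 in blood (20 and 21 of 45 over 0.1), other pairs -0.039 and -0.030. Of 18 libraries, 11 and 10 correlated best with their own number. With a replicate block the lung to blood value was 7.23, the changes in lung were 0.65, 0.62, -0.50 and 0.16 and those in blood 0.28, -0.57, -0.61 and -0.22 at weeks 1 to 4, and no call of miR-10a-5p changed. Counts of miRNAs called differed between edgeR and DESeq2, with 0 and 6, 0 and 6, 0 and 4, 0 and 8 in lung at weeks 1 to 4, 1 and 5, 1 and 3, 0 and 5, 0 and 4 in blood, 0 and 6 between the lung controls and 1 and 2 between the blood controls, 0 and 6 over all weeks in lung and 3 and 11 in blood, and 1 and 2, 1 and 3, 0 and 13, 0 and 11 for lung minus blood. Depth limits the blood values, which rest on 84 to 212 counts per library, and the 2 shallow lung libraries.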

Other observations

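Other rows of the table bear the name or the place of a miR-10 arm. A row of the class of homologs, named for miR-10-3p of insects, had 409 counts over the 18 lung libraries, in 15 of which it was found, at most 71 in 1 library, and 9 counts in blood, in 6 of 18 libraries. That is 1 count for 3108 counts of miR-10a-5p in lung. Which rat miRNA these reads came from was not analysed here.

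A new locus on chromosome 10 (rn4 chr10:85049292-85049438) had 110 counts over the 18 lung libraries, at most 29 in 1 library, and 0 in all 18 blood libraries. Among the new loci on that chromosome with at least 100 counts in lung it ran most like the 3p arm, miR-10a-3p (r = 0.82 over 16 lung libraries), which had 88 counts there, and another new locus on the chromosome was close behind (r = 0.79). It was chosen for that likeness, both rows hold few counts, and its annotation on rn4 was not analysed here.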
